A study of Mus musculus with 67 samples.

Results

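Chrna4 (ENSMUSG00000027577) encodes an alpha subunit of the neuronal nicotinic acetylcholine receptor, and its messenger RNA was counted in 67 mouse livers. The gene was found by its symbol in the GENCODE M21 annotation and is 1 of 55450 gene identifiers in the count files. It was selected on its measured levels in these livers, namely its near loss on leucine-free food. Its diet difference and its covariation with lipid synthesis genes are therefore given as a description, with no test. The livers came from wild-type (WT) mice and from mice of a Sestrin double knockout line, labelled Sesn2 DKO, which ate control or leucine-free food for 24 hours (day 1) or 8 days (day 8). Of the WT mice, 7 ate control and 12 ate leucine-free food until day 1, and 5 and 6 until day 8. Of the DKO mice, the same groups numbered 8, 18, 5 and 6. The labels give neither age nor strain, nor the alleles of the DKO line. Each library is labelled as a separate mouse.

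Nicotinic receptors are cation channels built from a ring of subunits that open when acetylcholine binds. In the brain the Chrna4 product pairs with the beta subunit encoded by Chrnb2 to form the receptor with the highest affinity for nicotine, which is what the gene is best known for. The liver, in contrast, is a main site of fatty acid and cholesterol synthesis. There, cytosolic acetyl-CoA comes from citrate through Acly and from acetate through Acss2, and Acaca, Fasn and Scd1 turn it into fatty acids under control of the transcription factor Srebf1.

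Libraries held 22814668 to 56916009 counts. Sesn1 lay between 9.24 and 22.2 CPM, the count divided by the scaled library size and set to a common total, over the WT libraries and between 3.49 and 7.68 CPM over those labelled DKO, without overlap. Sesn2, which the label names, had group means of 11.9 to 14.2 CPM in WT and 13.3 to 23.3 CPM in DKO livers and so was not lower. Totals per gene do not show whether a stretch of a gene is missing, and genotypes are used as labelled. Over 4 Y-linked genes every library had at most 1 count, while 1 DKO library, of the leucine-free group of day 1, had 0 Xist counts. A set of 5 leucine-free libraries deviated from their group means by more than the other libraries did. Leaving out either set changed no call on Chrna4 within leucine-free food. Both sets are leucine-free libraries, and the results of these refits were not kept for the contrasts on control food.

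The gene lies on the minus strand of GRCm38 chromosome 2, from 181018380 to 181043546, with 5022 exon bases. GENCODE M21 gives its 5 transcripts different first bases, at 181043546, 181039305, 181039225, 181039075 and 181028328, and counts per gene do not show which of them liver uses. The promoter window in RefSeq (GRCm38.p6, chr2:181039128-181039427) is 74.3% G and C, against a median of 52.7% over 32851 windows of the same length, and 95.6% of those windows lie below it. The part of this window upstream of all annotated starts inside it (chr2:181039306-181039427, minus strand, 122 bases) is printed here. It is set beside the matching part for Acss2 (chr2:155517793-155517947, plus strand, 155 bases), the gene whose level followed Chrna4 most closely. Both read 5′ to 3′ with GC boxes, GGGCGG on either strand, in capitals.
Chrna4: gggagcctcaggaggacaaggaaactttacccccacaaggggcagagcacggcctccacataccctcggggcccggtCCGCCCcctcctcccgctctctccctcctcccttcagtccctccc
Acss2: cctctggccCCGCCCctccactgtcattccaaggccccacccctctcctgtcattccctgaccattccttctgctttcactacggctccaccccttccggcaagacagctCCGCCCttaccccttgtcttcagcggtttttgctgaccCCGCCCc
The sterol element core TCACNCCAC, which SREBP proteins are known to bind, was found in neither whole window on either strand. It is in 1.24% of all windows, in 1 of 12 windows available for the 15 genes closest to Chrna4, in 0 of 18 for fatty acid synthesis and in 1 of 17 for cholesterol synthesis. The E-box CANNTG, of which the palindromic CACGTG is a special case, was also absent from the windows of Chrna4 and Acss2, and 72.3% and 7.15% of all windows hold these. The C/EBP-ATF element TGATGNAAT was absent too and is in 0.965% of windows. The GC box was searched after the sequence had been seen. The whole window of Chrna4 holds 3 and that of Acss2 holds 5, and 35.7% of all windows hold at least 1. These matches describe letters only.

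In livers on control food Chrna4 was well expressed. On leucine-free food it was lower, with 3 or fewer counts in 25 of 42 libraries and at most 100 counts. The library sizes behind CPM were scaled by TMM. In WT livers on control food at day 1 it ranged from 7.70 to 172 CPM with a median of 91.0, from 329 to 7830 counts. On leucine-free food the WT livers of day 1 ranged from 0 to 0.417 CPM with a median of 0.0681, and 5 of 12 libraries had no count. The groups did not overlap, and the lowest control library was 18.5-fold above the highest leucine-free one. In DKO livers of day 1 the range was 23.3 to 174 CPM with a median of 68.2 on control food, and 0 to 0.164 CPM with a median of 0.0494 on leucine-free food, where 4 of 18 libraries had no count. These groups also lay apart, by a factor of 142.

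At day 8 the control livers of WT mice had 21.4, 3.69, 48.9, 17.5 and 12.5 CPM in replicates 1 to 5. Those of DKO mice had 107, 57.7, 92.9, 144.5 and 84.8 CPM. Every DKO library was above every WT library. On leucine-free food the WT livers of day 8 ranged from 0 to 2.03 CPM with a median of 0.234, and the DKO livers from 0 to 0.871 CPM with a median of 0.1003. In each of these groups 1 of 6 libraries had no count, and 2 libraries of each held most of the reads. The WT ones, replicates 1 and 3, had 2.03 and 1.75 CPM from 100 and 66 counts, and the DKO ones, replicates 3 and 1, had 0.871 and 0.536 CPM from 35 and 19 counts.

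Over all 25 control libraries Chrna4 lay between 3.69 and 174 CPM and over all 42 leucine-free libraries between 0 and 2.03 CPM, so the diets separated without exception in these 67 livers. The lowest control library was 1.82-fold above the highest leucine-free one, and both were WT livers of day 8. The control libraries held 72890 Chrna4 counts and the leucine-free ones 347. Of the latter, 11 had no count and 25 had 3 or fewer. A count of 0 allows up to 3 counts for counting error alone, which is 0.0644 to 0.127 CPM over the 11 libraries with no count. Reads here carry no molecular identifiers, so that error is a lower limit. In pieces of whole liver, fewer cells that express a gene and less of its RNA per cell cannot be told apart.

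**Figure D1:**
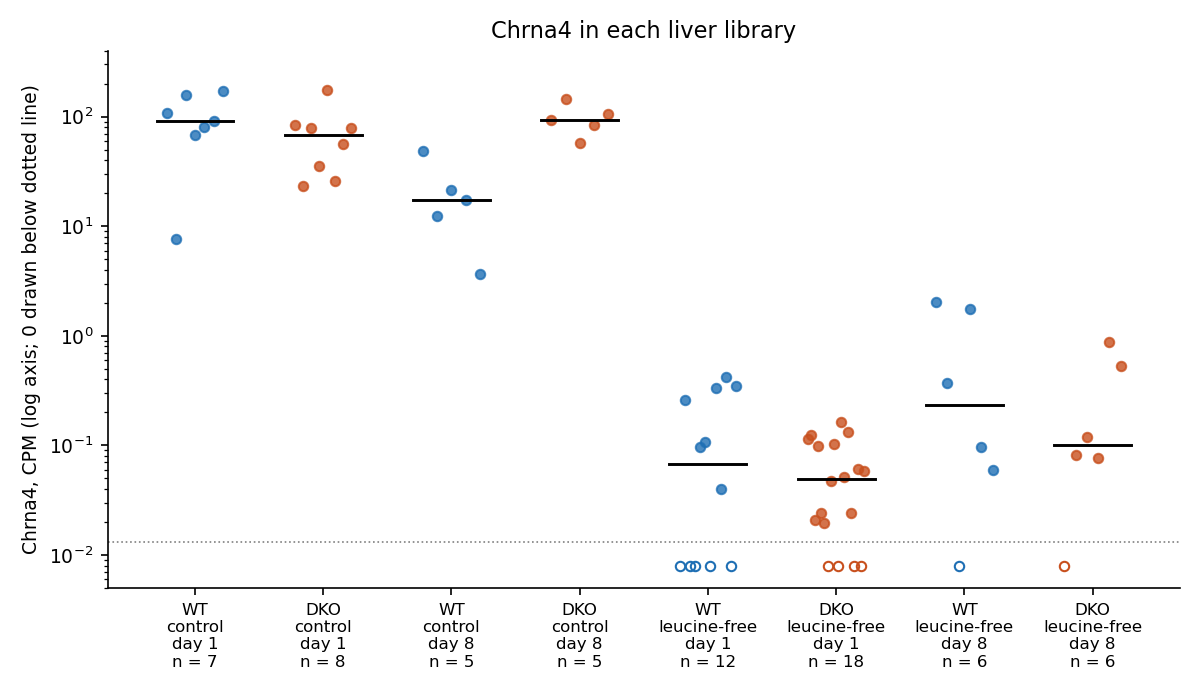
Chrna4 level (CPM, log axis) in each of the 67 libraries, by group, WT in blue and DKO in orange. Black lines are group medians and open circles under the dotted line are libraries with no count. The 25 control libraries lie between 3.69 and 174 CPM and the 42 leucine-free libraries between 0 and 2.03 CPM.

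WT control livers averaged 98.0 ± 55.7 CPM (SD, n = 7) at day 1 and 20.8 ± 17.0 CPM (n = 5) at day 8. DKO control livers averaged 69.8 ± 48.8 CPM (n = 8) and 97.4 ± 31.9 CPM (n = 5). On leucine-free food the WT means were 0.133 ± 0.160 CPM (n = 12) at day 1 and 0.717 ± 0.920 CPM (n = 6) at day 8, and the DKO means 0.0580 ± 0.0525 CPM (n = 18) and 0.281 ± 0.346 CPM (n = 6). The ratio of control to leucine-free means was 735 in WT and 1204 in DKO livers at day 1. At day 8 it was 29.0 in WT and 347 in DKO livers. With medians in place of means the log2 ratio, leucine-free over control, was -10.38 against -9.52 in WT livers of day 1, -6.23 against -4.86 in WT livers of day 8 and -9.86 against -8.44 in DKO livers of day 8. The smaller ratio in WT livers of day 8 went with both a lower control mean and a higher leucine-free mean.

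Set among all 16908 genes tested, the fitted log2 change of Chrna4, leucine-free minus control, was -9.56 in WT and -10.20 in DKO livers at day 1, the most negative of all in both. At day 8 it was -4.72 in WT livers, the 10th most negative, and -8.41 in DKO livers, the 2nd. Since Chrna4 was chosen on this contrast, these ranks describe the choice. Of the 16907 other genes, 19.5% were called between the diets in WT and 23.5% in DKO livers at day 1, and 5.25% and 20.6% at day 8. The genes next to it differed by day. Among genes with at least 5 CPM on control food in WT livers of day 1, the next were Scd1 (-5.00), which desaturates fatty acids, Pnpla3 (-4.91), a lipid droplet protein, and Thrsp (-3.96), an activator of lipogenesis. By the same limit, in WT livers of day 8 the pseudogene Serpina4-ps1 (-6.49), Hsd3b5 (-5.93), a steroid-metabolizing enzyme, and Slco1a1 (-5.24), an organic anion transporter, were more negative than Chrna4. In DKO livers, among genes with at least 5 CPM on control food, Hmmr (-5.66), a gene of dividing cells, came next after Chrna4 at day 1 and Slco1a1 (-5.47) at day 8.

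Genotype and day were compared within a diet with edgeR's quasi-likelihood test in a model of all 67 libraries. The choice of Chrna4 rested on its diet difference and not on these contrasts. The tests were, however, chosen with earlier results of these data known. Those on leucine-free food compare the low values for which the gene was picked. P-values were adjusted by Benjamini-Hochberg over 16908 genes, and a gene was called under 0.05. The contrasts share groups, so they are not independent of each other. On control food at day 1 the genotypes overlapped in level, and the log2 difference of -0.49 ± 0.32 (SE), DKO minus WT, was not called (adjusted p = 0.999), where 0.881% of genes were. An exact two-sided permutation test of log2(CPM + 0.5) over 8 DKO and 7 WT libraries gave p = 0.596.

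At day 8 on control food Chrna4 was higher in DKO livers by 2.23 ± 0.42 on the log2 scale (edgeR adjusted p = 0.00403), and was 1 of 9 genes called, 0.0532% of those tested. All 5 DKO libraries lay above all 5 WT libraries, and the exact two-sided permutation test gave p = 0.00794, the smallest that 5 against 5 can give. The call rested on the method and on 1 library. Without WT replicate 2, at 3.69 CPM, the difference was 1.97 with adjusted p = 0.0662. With the same difference of 2.23, the adjusted p was 0.708 with DESeq2, 0.265 when only the groups compared were fitted and 0.241 with the older dispersion method of edgeR.

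In WT livers on control food Chrna4 was lower at day 8 than at day 1, by -2.24 ± 0.40 (edgeR adjusted p = 0.00029), where 4.44% of genes were called. The ranges, 3.69 to 48.9 and 7.70 to 172 CPM, overlapped through day 1 replicate 4, at 7.70 CPM. The call was lost with DESeq2 (adjusted p = 0.0956) and with only the groups compared (0.109). In DKO control livers the day difference was 0.48 ± 0.35 and was not called (edgeR adjusted p = 0.358), where 17.1% of genes were. The genotype difference on control food changed between the days by 2.72 ± 0.53 (edgeR adjusted p = 0.00823), and 24 genes, 0.142%, were called for this interaction. Without WT replicate 2 or DKO replicate 4 of day 8 the adjusted p was 0.0549 and 0.0534. It was 0.557 with DESeq2, 0.289 with only the groups compared and 0.137 with the older edgeR method. Day cannot be told apart from any difference in how livers of the 2 days were handled.

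**Figure D2:**
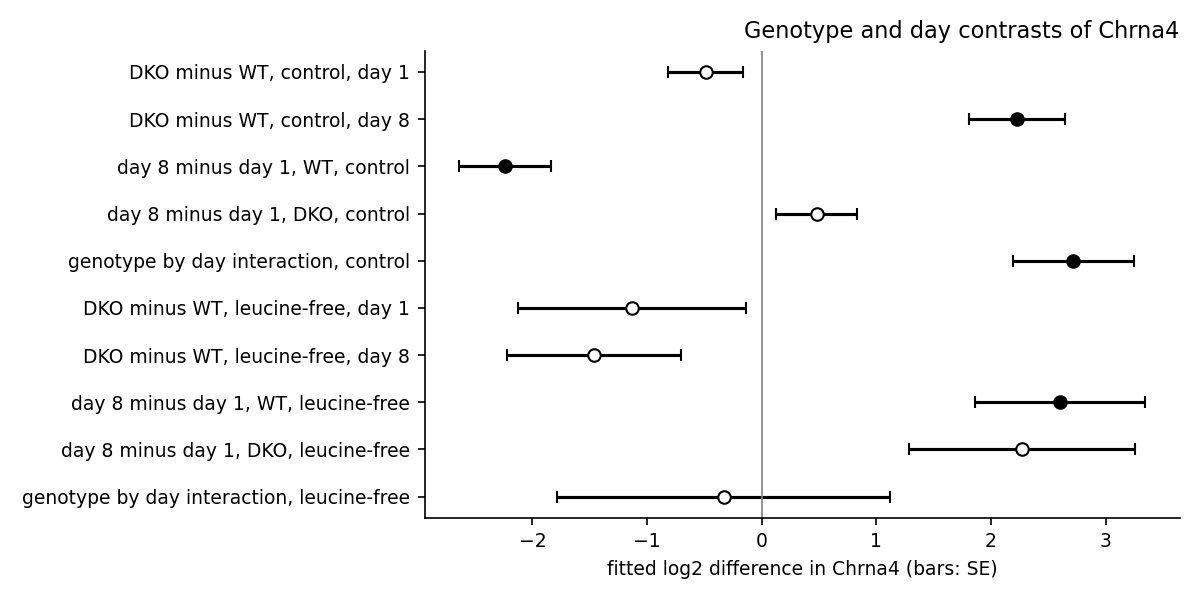
Fitted log2 differences in Chrna4 for 10 contrasts of genotype and day within a diet, with standard errors, from 1 edgeR model of 67 libraries. Filled points have an adjusted p under 0.05 and open points do not. On leucine-free food, both genotype contrasts and the DKO day contrast failed the expression filter with only the groups compared. Nothing rests on these, or on the WT day contrast (filled) and the interaction on that food. On control food the genotypes differed by 2.23 at day 8 and by -0.49 at day 1.

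On leucine-free food few reads were left to compare, and Chrna4 passed the expression filter through the control groups. When only the groups compared were fitted, it failed the filter in both genotype contrasts and in the DKO day contrast, so these 3 are given as values and nothing rests on them. The DKO minus WT difference was -1.13 ± 1.00 at day 1 and -1.46 ± 0.76 at day 8, neither called by edgeR (adjusted p = 0.583 and 0.376), where 3.70% and 2.06% of genes were. The permutation tests gave p = 0.117 at day 1 and, by exact enumeration, p = 0.431 at day 8, and the ranges of the genotypes overlapped on both days. In WT livers Chrna4 was higher at day 8 than at day 1 by 2.60 ± 0.74 (edgeR adjusted p = 0.0171), where 8.18% of genes were called. This rested on the 2 libraries with the most reads. It compares the low values for which the gene was picked, so it is given as a value and nothing rests on its call. Without replicate 1 the difference was 1.88 (adjusted p = 0.187), without replicate 3 it was 2.21 (0.0935), and limma with voom gave 1.64 (0.674). In DKO livers the difference of 2.27 ± 0.98 was not called by edgeR (adjusted p = 0.0767), where 26.4% of genes were. The interaction of genotype and day on this food was -0.33 ± 1.46 (edgeR adjusted p = 0.958), where 0.621% of genes were called. It is the difference between both genotype contrasts above, so nothing rests on it either.

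Chrna4 also varied between livers of 1 group. Its SD within the control groups was 1.14 on the log2 scale, against a median of 0.175 over 9775 genes with at least 5 CPM in control livers, which placed it 40th from the most variable. The deviations of Chrna4 from its group means were set against those of every other gene over the 25 control libraries. Points share their library and its scaling, and no p is given. The likeness was greatest for Acss2, the cytosolic acetyl-CoA synthetase, with Pearson r = 0.965 and Spearman rho = 0.934, the highest r of 16907 genes. Acly, the ATP citrate lyase, followed with 0.938 and Rdh11, a retinol dehydrogenase of the endoplasmic reticulum, with 0.934. The liver with the least Chrna4 for its group, WT day 1 replicate 4, deviated from its group mean by -3.18 log2 units in Chrna4, -1.84 in Acss2 and -1.64 in Acly.

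The rest of the 15 most alike genes, chosen at a mean of at least 1 CPM in control livers, were mostly of lipid synthesis. Cholesterol synthesis gave Sc5d (r = 0.882), Pmvk (0.864), Acat2 (0.862) and Dhcr7 (0.858). Fatty acid metabolism gave Acsl5 (0.895), an acyl-CoA synthetase, and Acacb (0.856), the acetyl-CoA carboxylase that restrains fatty acid oxidation. Pgd (0.871) makes NADPH in the pentose phosphate pathway, and Echdc1 (0.848) clears a by-product of acetyl-CoA carboxylase. Ccdc69 (0.878), Tlcd1 (0.865) and Pstpip2 (0.862) were also among them. At the other end stood Nectin3 (-0.828), a cell adhesion protein, Lcat (-0.799), which esterifies cholesterol in plasma, Taf1d (-0.797), Cgnl1 (-0.762) and Abcb4 (-0.755), the phospholipid exporter of bile. Without the 2 livers farthest out in Chrna4, WT day 1 replicate 4 and WT day 8 replicate 2, r was 0.925 for Acss2 and 0.882 for Acly.

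Chrna4 swung more widely than the genes it moved with. For each log2 unit of Chrna4 within the control groups, Acss2 moved by 0.58, Acly by 0.54, Scd1 by 0.59, Fasn by 0.49 and Pgd by 0.29 log2 units. Within day 1 (15 libraries) r with Acss2 was 0.974 and within day 8 (10 libraries) 0.944. For Dhcr7, Acacb and Echdc1 the values within day 8 were lower, at 0.606, 0.624 and 0.590. Over all 67 libraries, with diet and group left in, the 10 most alike genes were Acss2 (0.967), Acly (0.966), Fasn (0.956), Acacb (0.955), Lactb2 (0.950), Rdh11 (0.945), Klk1b4 (0.944), Acat2 (0.942), Acaca (0.937) and Echdc1 (0.936). Of these, Klk1b4, a kallikrein of a multi-copy family and uncertain for that, had r = 0.629 once group means were removed.

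**Figure D3:**
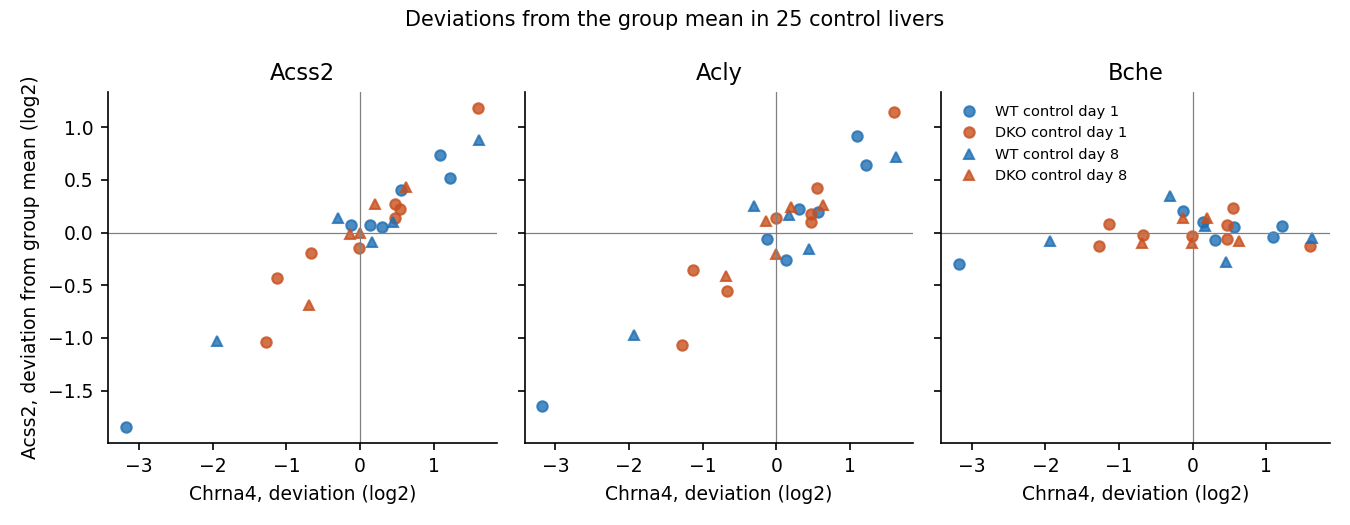
Deviation of Acss2, Acly and Bche from their group means (log2, vertical axes) against that of Chrna4 (log2, horizontal axes) in 25 control livers. Circles are day 1, triangles day 8, blue WT and orange DKO. Acss2 (r = 0.965) and Acly (0.938) follow Chrna4, and Bche, the liver butyrylcholinesterase, shows r = 0.229.

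By pathway, 15 of 22 fatty acid synthesis genes had r over 0.5 with Chrna4 in control livers, with a median of 0.70. Cholesterol synthesis had 24 of 25 with a median of 0.67, and pentose phosphate and NADPH genes 6 of 8 with a median of 0.68. Over all genes 6.00% passed 0.5 and the median was -0.0017. Acss2, Acly, Acacb, Scd1 (0.845) and Gpam (0.836), which starts glycerolipid synthesis, led the fatty acid list, and Fads2 (0.202), Fads1 (0.233) and Srebf1 itself (0.293) stood at its low end. Cholesterol genes followed Chrna4 closely at day 1, with a median r of 0.85, and less at day 8, with 0.28 over 10 libraries. That difference between days was not tested.

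The other lists stood closer to the genome as a whole. Targets of ChREBP, the carbohydrate-sensing factor, had a median r of 0.41 with 3 of 10 over 0.5, among them Pklr (0.628), the liver pyruvate kinase. Core clock genes had 0.24 (1 of 14) and integrated stress response genes 0.19 (1 of 15). Without WT day 1 replicate 4 and WT day 8 replicate 2 the median was 0.25 for ChREBP targets and 0.0067 for clock genes, and 0.61, 0.62 and 0.59 for the fatty acid, cholesterol and pentose phosphate lists. LXR targets (0.10), insulin and fasting genes (0.081) and the other nicotinic subunits (0.022) had none over 0.5.

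**Figure D4:**
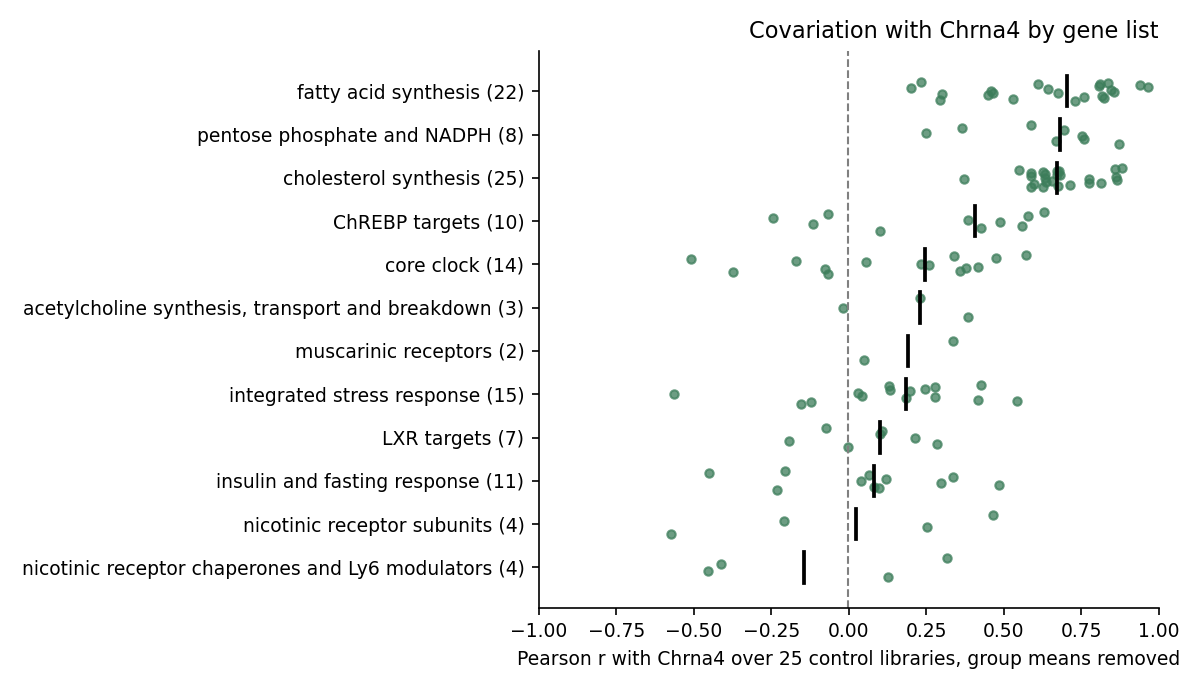
Pearson r with Chrna4 of each tested member of 12 gene lists over 25 control libraries after removing group means (horizontal axis), 1 row per list with the number of members tested. Black bars are list medians and the dashed line is the median of all genes, -0.0017. Fatty acid, pentose phosphate and cholesterol synthesis have medians of 0.67 to 0.70.

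The closest companions were compared between the genotypes on control food at day 8. Acss2 had 336, 153, 577, 294 and 344 CPM in the WT livers and 950.2, 487, 783, 1064 and 781 CPM in the DKO livers, which overlapped through WT replicate 3. Acly overlapped as well, with 242 to 779 CPM in WT and 749 to 1194 CPM in DKO livers, and Rdh11, with 57.1 to 106 and 131 to 197 CPM, did not. The log2 difference of Acss2, 1.25, was not called (edgeR adjusted p = 0.395). G6pdx, the entry enzyme of the pentose phosphate pathway, was less close to Chrna4 (r = 0.669, rank 219). It was called, at 1.41 ± 0.28 (edgeR adjusted p = 0.0170), with 6.67 to 14.0 CPM in WT and 19.5 to 48.6 CPM in DKO livers and no overlap. Alternative fits were not kept for G6pdx, and the count of genes called in this contrast ranged from 4 to 92 with other settings. Of the lists, 0 of 22 fatty acid genes (median log2 difference 0.56), 0 of 25 cholesterol genes (0.38) and 1 of 8 pentose phosphate genes (0.16) were called, beside 0.0532% and a median of -0.0067 over all genes. At an unadjusted edgeR p under 0.05 there were 9, 3 and 3, beside 6.39% of all genes. Srebf1 went the other way in value, with a difference of -0.69 that was not called (edgeR adjusted p = 0.692). In WT control livers between the days, 9 of 22 fatty acid genes fell and 0 rose, with Acss2 at -1.62 ± 0.37 and Acly at -1.47 ± 0.29 (edgeR adjusted p = 0.00488 and 0.00149). There 3 of 25 cholesterol and 6 of 8 pentose phosphate genes fell. Over all genes 2.79% fell and 1.65% rose in this contrast. These contrasts share their libraries with the covariation above and are no separate evidence of it.

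Chrna4 was the most abundant nicotinic subunit of control livers per exon length. On that scale, CPM per kilobase of exon, it stood at 19.5 in WT and 13.9 in DKO control livers of day 1, and at 4.14 and 19.4 at day 8. The next, the alpha subunit Chrna2, had group means of 0.596 to 0.842 on control food, Chrnb1, of the muscle receptor, 0.348 to 0.584, and Chrnb2, the usual partner of Chrna4 in brain, 0.208 to 0.264. Chrne, another muscle subunit, had 0.144 to 0.258. On leucine-free food Chrna4 fell to 0.0115 to 0.143 and was below Chrna2, Chrnb1 and Chrnb2 in every group mean. Of the 15 other subunits 4 passed the expression filter. Chrna3, Chrna5, Chrna6, Chrnd and Chrng had no count in any library, and Chrna1, Chrna7, Chrna9, Chrna10, Chrnb3 and Chrnb4 had at most 6 counts in any library.

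The other tested subunits had smaller fitted changes on leucine-free food, in both directions. Chrna2 was higher at day 1, with a log2 change of 1.02 ± 0.33 in WT and 1.05 ± 0.29 in DKO livers (edgeR adjusted p = 0.0207 and 0.00520), and was not called at day 8. Its CPM ranged from 0.632 to 5.66 in WT control and from 3.85 to 10.1 in WT leucine-free livers of day 1, which overlapped. Within control groups Chrna2 went opposite to Chrna4, with r = -0.574. Chrnb2 was called in DKO livers at day 8 alone, at 1.02 ± 0.28 (edgeR adjusted p = 0.00615). Chrne was lower in DKO livers, by -1.76 at day 1 and -1.71 at day 8 (edgeR adjusted p = 0.00675 and 0.0267), at no more than 30 counts a library. Chrnb1 was called in none of the 4 diet contrasts.

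The makers of the ligand were not seen. Chat, which makes acetylcholine, Slc18a3, which loads it into vesicles, and Slc5a7, the high-affinity choline transporter, had no count in any library. Bche, the cholinesterase that liver secretes, had group means of 151 to 197 CPM and was called in 0 of 4 diet contrasts. Ache, the synaptic cholinesterase, had at most 1.19 CPM in a group mean, and Slc44a1, a choline transporter, 32.0 to 49.8 CPM. Slc44a1 was lower on leucine-free food in DKO livers, by -0.30 at day 1 and -0.54 at day 8 (edgeR adjusted p = 0.0222 and 0.00411). Muscarinic receptors were at the edge of detection, with Chrm1 and Chrm3 tested and called in 0 of 4 diet contrasts. Of 9 chaperones and Ly6 modulators of nicotinic receptors 4 were tested, among them Ric3, a receptor assembly factor, and Lynx1, a receptor modulator, both under 2.20 CPM in each group mean.

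**Figure D5:**
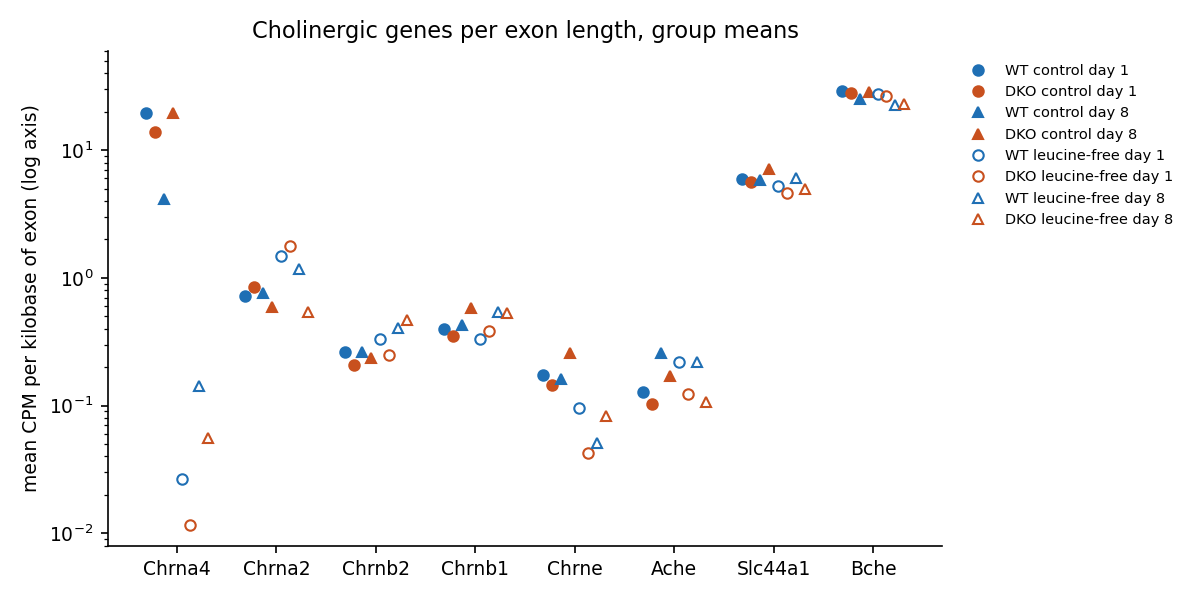
Group means of CPM per kilobase of exon (log axis) for Chrna4, the 4 other tested subunits, the cholinesterases Ache and Bche and the choline transporter Slc44a1. Filled symbols are control and open symbols leucine-free food, circles day 1 and triangles day 8, blue WT and orange DKO. Chrna4 spans 19.5 to 0.0115 and Bche 29.2 to 22.4.

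The genes around Chrna4 did not share its pattern. Of 23 other genes with an end within 200 kb, 9 were tested and 12 were protein coding. The nearest, Col20a1, a collagen gene on the opposite strand whose 3′ end lies 17 bases from that of Chrna4, averaged 3.59 CPM in control and 3.25 CPM in leucine-free libraries and was called in 0 of 14 contrasts. Whether the counting used strand is not given in the sources, so reads that run past an annotated end cannot be assigned with certainty. Arfgap1, a regulator of Golgi traffic, had 32.4 and 32.0 CPM. Ptk6, an intracellular tyrosine kinase, had 5.10 and 2.98 CPM and was called in 0 of 4 diet contrasts. Ythdf1, an RNA-binding protein gene, Nkain4, Srms and BX649560.1 were likewise not called between the diets. Ppdpf rose by 0.30 in WT livers of day 1 and Helz2 was lower by -0.44 in DKO livers of day 8 (edgeR adjusted p = 0.0177 and 0.00130).

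Markers of the cells a piece of liver can hold were set beside the result. Summed over 10 neuronal markers, of which Snap25 and Th had no count in any library, levels ranged from 9.97 to 23.6 CPM over control and from 7.70 to 24.2 CPM over leucine-free libraries, so the diets overlapped throughout. The 6 Schwann cell markers summed to 5.38 to 20.7 CPM on control and 3.98 to 14.5 CPM on leucine-free food, and the 8 hepatocyte markers to 83930 to 135000 and 48650 to 124800 CPM. Several lists stood apart between the diets at day 8. The 7 macrophage markers summed to 471 to 618 CPM on control and 194 to 420 CPM on leucine-free food in WT livers, without overlap, and to 526 to 668 and 122 to 534 CPM in DKO livers, with 4 of 7 called lower in WT and 6 of 7 in DKO livers. The 8 lymphocyte markers summed to 6.93 to 15.8 CPM on control and 3.65 to 6.21 CPM on leucine-free food in WT livers of day 8. Of 5 erythroid markers tested, 3 were called lower in DKO livers of day 8, with a median log2 change of -1.24. In DKO livers of day 8 the 6 cholangiocyte markers summed to 47.6 to 85.0 CPM on leucine-free food, without overlap with control food, and 2 of 6 were called lower. Beside these counts, 2.87% of all genes were called lower between the diets in WT and 9.505% in DKO livers of day 8. At day 1 the summed levels of all 10 marker lists overlapped between the diets in both genotypes. At day 8 on control food the 6 cholangiocyte markers summed to 50.2 to 104 CPM in WT and 99.3 to 121 CPM in DKO livers. The part of cell makeup in the diet and genotype differences was not tested. Within the control groups the r of Chrna4 with the summed level of each of 10 marker lists lay between -0.12 and 0.35.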

How the data were processed

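Liver RNA of 67 mice was measured by RNA sequencing. Per the labels' protocols, RNA came from frozen tissue (miRNeasy) and went into strand-specific NEBNext Ultra II libraries. The values are raw counts per Ensembl gene as the authors deposited them, 1 file per library. Per the submitters' processing notes, the tools include the counter featureCounts 2.0.1, the aligner STAR 2.7.1a and, for testing, DESeq2 1.26.0. The same notes list mm10 and GRCm38 as builds. All 55450 identifiers matched GENCODE M21. A count table of the whole series was not used.

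TMM scaling and all gene-wise tests used edgeR 4.0.16 in R 4.3.3 (newer quasi-likelihood method, robust, filterByExpr, 8 groups as terms). The filter kept 16908 genes and left out 38542. Adjusted p-values are Benjamini-Hochberg over these genes. The fit was also run on simulated counts with set changes in DKO control livers of day 8 and no other group differences. That setting lacks the diet and day differences of these livers. Its outcome is not reported here, and nothing rests on it. Alternatives used DESeq2 1.42.0 and limma 3.58.1, other scalings and filters, only the groups compared, mouse number as a block and each of 37 control or day 8 libraries left out in turn. The older edgeR method and the fits without deviating libraries or without the library with 0 Xist counts were added after seeing the data.

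Correlations used log2(CPM + 0.5) minus the group mean. Promoter windows are from RefSeq, 250 bases before to 50 after a start. The members, gene lists, tests and the rule for named genes were chosen with earlier results of these data known. The named genes are Chrna4, detected cholinergic genes, genes within 200 kb, the 15 highest and 5 lowest by r in control livers, the 10 highest over 67 libraries, the 5 most negative per diet contrast at 5 CPM or more, and the 5 highest of each lipid list. Some genes that this rule names are not reported here. The groups share replicate numbers in the labels. Of 30 same-numbered pairs, 10 deviated together with a correlation over 0.1. No differently numbered pairs stand beside that count, so it cannot decide whether the numbers pair mice. The main model did not treat them as pairs. Precision rests on the spread between mice. Depth ranged from 22814668 to 56916009 counts per library.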

Additional observations from a re-analysis of the deposited data

Results flagged for a closer look

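In WT control livers of day 1, replicate 4 had 7.70 CPM of Chrna4, with the next lowest at 67.5 CPM, and stood apart from the other 6 libraries on the log2 scale by Dixon's criterion. In DKO control livers of day 1, replicate 3 had 174 CPM, with the next highest at 83.9 CPM, and stood apart on the CPM scale. Chance singles out about 1 group in 20 on each scale. Each group with 5 to 8 libraries was checked at both ends on both scales, so the rate over both is higher. Neither library stood apart on the other scale. The genotype difference in Chrna4 on control food differed between the days by 2.72 on the log2 scale, by the test of the interaction given above. The cause of these patterns was not tested.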

How the results depend on the processing

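The genotype difference on control food at day 8 stayed positive in each alternative, 1.97 to 2.80 with single libraries left out. It was not called with DESeq2 (2.23), only the groups compared (2.23), the older edgeR method (2.23) or without WT replicate 2 (1.97). The interaction of genotype and day on control food was 2.45 to 3.28 with libraries left out and was not called with DESeq2 (2.72), only the groups compared (2.72), the older edgeR method (2.72), or without WT replicate 2 or DKO replicate 4 of day 8. The day difference in WT control livers was -2.80 to -1.97 with libraries left out, all 12 called, and not called with DESeq2 (-2.24) or only the groups compared (-2.22). The day difference in WT leucine-free livers was 1.88 to 2.85 with libraries left out, 4 of 6 called, and 1.64 with voom, not called. In DKO leucine-free livers it was called with DESeq2 alone (2.30), on a gene that fails the expression filter there. The interaction on leucine-free food ranged from -1.15 to 0.38 with libraries left out and reversed in sign without WT replicate 1 (0.38) or 3 (0.058). With only the groups compared, Chrna4 did not pass the filter in 3 leucine-free contrasts, which then have no value. The mouse number as a replicate block changed no call on Chrna4 and gave 2.58 for the genotype difference at day 8 on control food. The median r of cholesterol genes was 0.28 in day 8 control livers alone. Taking medians in place of means, the log2 diet ratio in DKO livers of day 8 was -9.86 against -8.44, and the WT ratios also moved by over 1.5 times. Counts of genes called moved more. With all libraries kept, the 9 genes called between the genotypes at day 8 on control food became 4 with the older edgeR method and 92 with voom, and the 24 of the interaction became 4 and 177, and 0 in edgeR with only the groups compared (1499 at an unadjusted p under 0.05, and 25 called by DESeq2). The 750 of the WT control day contrast became 378 with no expression filter and 1803 with voom, and the 2882 of the DKO one 5806 with voom. The 149 between genotypes at day 1 on control food became 53 at a mean CPM of at least 1. On leucine-free food the 625 between genotypes at day 1 ranged from 284 to 1559 (357 with the block), the 349 at day 8 from 107 to 477, the 1383 of the WT day contrast from 892 to 2252 and the 105 of the interaction from 35 to 215. Few reads limit all comparisons within leucine-free food. The causes of these changes were not tested.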
